A study of Drosophila melanogaster with 23 samples.

Results

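*CG12698*, *Muc14A* and *CG8958* are genes of the *Drosophila melanogaster* X chromosome that lie in the same region as *Myb*, and each was represented by 1 transcript (FBtr0074139, FBtr0074205 and FBtr0074207) among the 16637 transcripts that were tested. These 3 transcripts were picked by name, with their strong rise in *Myb* mutant wing discs already known. Their difference between genotypes is therefore given as a description, with no test.

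RNA came from wing imaginal discs, the larval epithelia that form the adult wing and thorax, of male 3rd instar larvae. Mutant larvae were hemizygous for *Myb* MH107, an allele made by mobilizing a P element, which per the study's methods lacks the 5′ end of *Myb* and also the neighbouring gene *AlkB*, on a chromosome marked with *w1118*. Control larvae came from the *yw67* stock, into which the mutation had been outcrossed for several generations. Mutant males were recognized by the absence of a GFP-marked balancer chromosome and would die as early pupae. Each genotype had 3 biological replicates, hybridized to 12 mutant and 11 control single-colour NimbleGen arrays, with 4 arrays for every biological replicate except control replicate 3, which had 3. Because the members and *Myb* share a chromosome, the loss of *Myb*, the loss of *AlkB* and any other difference that the mutant chromosome carries cannot be told apart in this design. In whole discs, a change in RNA per cell and a change in the share of cells that make the RNA cannot be told apart either.

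Myb binds DNA and regulates transcription, and flies carry a single gene of this family. The protein works within the dREAM complex, which is known for activating genes of mitosis and for keeping other genes silent. *Muc14A* encodes a mucin, a class of proteins with long repeats rich in serine and threonine that carry sugar chains. *CG12698* and *CG8958* are protein-coding genes that carry computed names. In the RefSeq annotation *Muc14A* is the next gene after *CG12698*, *CG12698* is the 32nd gene after *Myb*, and *CG8958* is the 39th.

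For *CG12698* the study also lists RT-qPCR primers. They are printed because they mark the stretch of the *CG12698* transcript (X chromosome) that RT-qPCR amplifies, are 21 and 19 bases long, and are not probes of the array. RT-qPCR values were not analysed here.
CG12698 forward: agggtggaatatcgctgaatg
CG12698 reverse: acgcttagcatgtggagtg

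*CG12698* had RMA signals (background-corrected, quantile-normalized array units on a linear scale) of 7610, 7236 and 7091 in mutant replicates 1, 2 and 3, against 48.2, 45.7 and 49.3 in control replicates 1, 2 and 3. Every mutant replicate was far above every control replicate, and the groups did not overlap on single arrays, which ran from 6756 to 7823 in the mutant and from 43.0 to 52.6 in the control. On the log2 scale the mean was 12.84 ± 0.05 in the mutant and 5.58 ± 0.06 in the control (SD, n = 3 biological replicates each). The change was 7.26 (SE 0.06), or 153-fold. It was the largest upward change among the tested transcripts, just ahead of *CG1571* (7.25, SE 0.12), and this first place did not hold with dim signals set to a floor.

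*Muc14A*, the mucin gene beside it, had signals of 1353, 1369 and 1194 in mutant replicates 1, 2 and 3, against 39.1, 41.4 and 40.6 in control replicates 1, 2 and 3. Mutant replicate 3 was the dimmest of the mutants, and still lay 4.85 log2 units above the brightest control replicate. Single arrays ran from 1074 to 1514 in the mutant and from 36.4 to 44.1 in the control. The log2 mean was 10.35 ± 0.11 in the mutant and 5.33 ± 0.04 in the control. The change was 5.01 (SE 0.08), or 32.3-fold. A larger upward change was seen in 6 of the tested transcripts.

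*CG8958* had signals of 1428, 1356 and 1209 in mutant replicates 1, 2 and 3, against 55.2, 60.9 and 58.4 in control replicates 1, 2 and 3. Again mutant replicate 3 was the dimmest mutant, and the gap to the brightest control replicate was 4.31 log2 units. Single arrays ran from 1129 to 1470 in the mutant and from 52.6 to 63.3 in the control. The log2 mean was 10.37 ± 0.12 in the mutant and 5.86 ± 0.07 in the control. The change was 4.51 (SE 0.08), or 22.8-fold, and 12 tested transcripts changed upward by more.

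**Figure D1:**
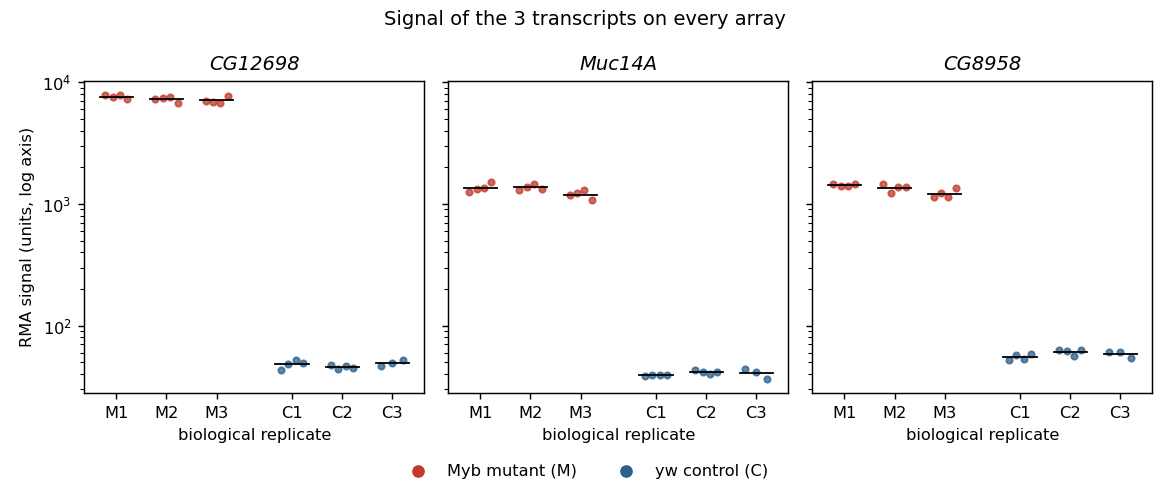
RMA signal (log axis) of *CG12698*, *Muc14A* and *CG8958* on each of the 12 mutant and 11 control arrays, with points for arrays and black lines for the means of biological replicates (M1 to M3, mutant; C1 to C3, control). In each gene all mutant arrays lie above all control arrays. The lowest mutant and highest control arrays were 6756 and 52.6 in *CG12698*, 1074 and 44.1 in *Muc14A*, and 1129 and 63.3 in *CG8958*.

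In all 3 members the mutant and control replicates did not overlap, with the mutant higher. The same held for 14.6% of all tested transcripts. This non-overlap follows from how the members were picked and is not read as a result.

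All control signals of the members were dim. A control mean under 100 was found in 4817 of the 16637 tested transcripts (29.0%), and 18 of these, the 3 members among them, had a mutant mean of at least 1000. How far such dim signals stand above background was not tested, since no detection flags were analysed here. *AlkB*, which the mutant lacks per the study's methods, read 46.6 to 50.9 in mutant replicates. Control replicates read 45.7 to 49.3 in *CG12698*, 39.1 to 41.4 in *Muc14A* and 55.2 to 60.9 in *CG8958*. A lower control mean was found in 3.91%, 0.781% and 11.1% of tested transcripts, in that order. The folds of the members rest on these control signals. With every signal under 100 set to 100, the changes were 6.19 in *CG12698*, 3.70 in *Muc14A* and 3.73 in *CG8958*, or 73.1-, 13.0- and 13.3-fold. *CG1571* then had the largest change (6.37) and *CG12698* came next, while 26 transcripts changed upward by more than *Muc14A* and 25 by more than *CG8958*.

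**Figure D2:**
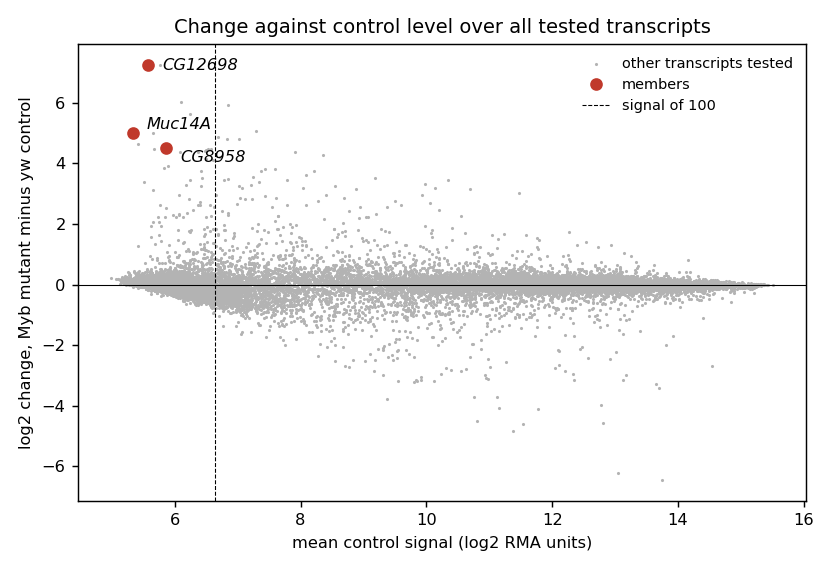
Log2 change (mutant minus control) against the mean control signal (log2) for all 16637 tested transcripts, with the members in red and a dashed line at a signal of 100. The members lie at control means of 5.33 to 5.86, left of that line, with changes of 4.51 to 7.26, whereas the middle of the cloud is at -0.01.

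Array signals depend on the probes of a transcript, so the levels of the members were not ranked against each other. Their changes were compared instead, as the ratio of the signals within each sample. The log2 ratio of *CG12698* to *Muc14A* was 2.40 to 2.57 in mutant replicates and 0.14 to 0.30 in control replicates, so *CG12698* rose by 2.25 (SE 0.07) more on the log2 scale. Against *CG8958* it rose by 2.75 (SE 0.08) more. *Muc14A* rose by 0.50 (SE 0.03) more than *CG8958*, with log2 ratios of -0.08 to 0.01 in the mutant and -0.56 to -0.50 in the control. All of these differences rest on control signals under 100. With signals under 100 set to 100, every control log2 ratio became 0, so the difference of the changes equalled the mutant log2 ratio by construction. It was -0.03 (SE 0.03) for *Muc14A* against *CG8958*, 2.49 for *CG12698* against *Muc14A* and 2.46 for *CG12698* against *CG8958*. Such ratios depend on the probes, so this setting cannot rank the changes of the members.

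The members varied less between biological replicates than the median transcript at like levels. They come from the study's list of transcripts ranked by p-value, and such a ranking favours a small spread. The mutant SD of *CG12698* was 0.05, and the median was 0.10 over the 2298 transcripts whose mutant mean was within 0.5 log2 units of it. For *Muc14A* and *CG8958* the mutant SDs were 0.11 and 0.12, and the median at their mutant levels was 0.17 (1224 and 1245 transcripts). In the control the SDs were 0.06, 0.04 and 0.07 in *CG12698*, *Muc14A* and *CG8958*, with medians of 0.12, 0.10 and 0.13 at like control levels. In the same order, 21.6%, 31.4% and 35.0% of transcripts at like mutant levels had a smaller mutant SD. At like control levels 18.4%, 13.7% and 22.5% had a smaller control SD. Single arrays of 1 biological replicate had SDs of 0.01 to 0.14 in the members. The SE over these arrays, which is on the scale of the replicate means, was 0.01 to 0.08. The SDs between biological replicates were 0.04 to 0.12.

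The order of the replicates was shared in part. Mutant replicate 3 was the lowest mutant in all 3 members, as it was in 49.3% of all tested transcripts and in 22 of the 31 (71.0%) that were called higher with a control mean under 100. It deviated from the mutant mean by -0.04 (SE 0.05 over 4 arrays) in *CG12698*, by -0.13 (SE 0.06) in *Muc14A* and by -0.14 (SE 0.06) in *CG8958*. The mutant order was replicate 1, 2 and 3 from high to low in *CG12698* and *CG8958*, and 2, 1 and 3 in *Muc14A*. Among controls, *Muc14A* and *CG8958* had the same order (2, 3, 1), which 16.6% of all tested transcripts had, and *CG12698* had another (3, 1, 2). The control ranges were 0.11, 0.08 and 0.14 log2 units in *CG12698*, *Muc14A* and *CG8958*, and the control order of *Muc14A* became 3, 2, 1 after centring the arrays on their medians or after a second quantile normalization.

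**Figure D3:**
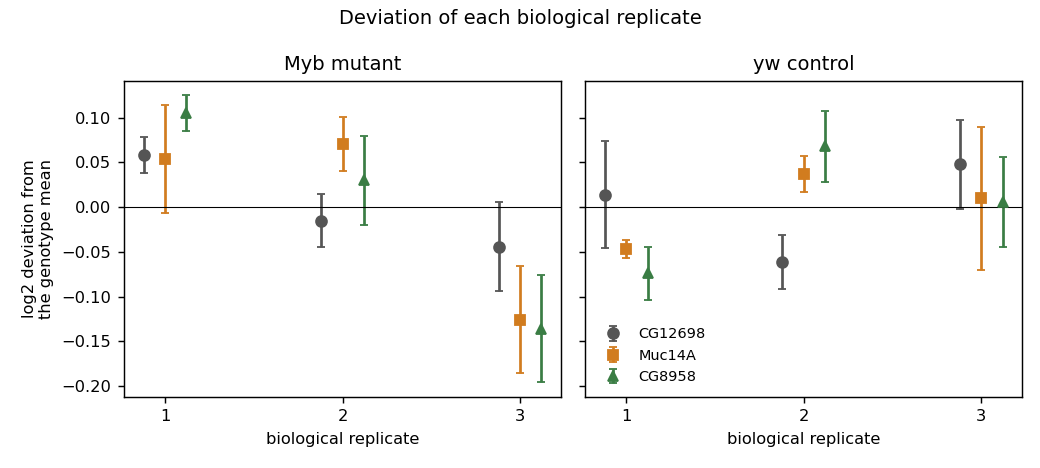
Deviation of each biological replicate from the mean of its genotype (log2) in *CG12698*, *Muc14A* and *CG8958*, mutant left and control right, with whiskers for the SE over the arrays of that replicate. *Muc14A* and *CG8958* lie on the same side of the mean in each replicate, including -0.13 and -0.14 in mutant replicate 3, whereas *CG12698* lies on the other side of the mean in mutant replicate 2 (-0.01) and in control replicates 1 (0.01) and 2 (-0.06).

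Over the 6 deviations from the genotype means, which leave 4 free values, Pearson's r was 0.93 between *Muc14A* and *CG8958*, 0.29 between *CG12698* and *Muc14A*, and 0.31 between *CG12698* and *CG8958*. A higher r with *Muc14A* than that of *CG8958* was found in 563 tested transcripts (3.38%). The single arrays behaved otherwise. Over the deviations of the 23 arrays from the mean of their biological replicate, r was -0.04 between *Muc14A* and *CG8958*, -0.40 between *CG12698* and *Muc14A*, and 0.11 between *CG12698* and *CG8958*. All of these arrays were normalized together.

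The transcripts most like each member were ranked by Pearson's r over the 6 replicate means, a measure that is set mainly by the difference between genotypes. *Muc14A* and *CG8958* were nearest to each other of all tested transcripts (r = 0.9999). For *CG12698*, *Muc14A* and *CG8958* stood behind other transcripts, 6 of which had a higher r than *Muc14A* (0.9997) and 10 a higher r than *CG8958* (0.9994). The named transcripts nearest to *CG12698* were *CG31100* on 3R, *CG31125* on 3R and *Rpt6R* on 3R, a gene related to a proteasome subunit, all with r = 0.9998. Their signals were 2435, 6613 and 1619 in the mutant, and 173, 3255 and 50.3 in the control. After *CG8958*, the nearest to *Muc14A* were *CG13148* and *Asph*, both on 2R (r = 0.9997), and after *Muc14A* the nearest to *CG8958* were *Asph* (r = 0.9997) and *Fam92* on 2L (r = 0.9996). *Asph*, the fly relative of aspartyl beta-hydroxylase, averaged 2091 in mutant discs against 311 in control discs. *Fam92* averaged 1145 in mutant discs against 51.1 in control discs. An r above 0.99, a looser level than the values above, was found with a given member in 157 to 163 transcripts (0.944% to 0.98% of those tested).

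The genes altered by the allele lie in the same region and check the labels. *Myb* had signals of 4586, 4929 and 4717 in mutant replicates 1, 2 and 3, against 15216, 15119 and 16233 in control replicates 1, 2 and 3, and *AlkB*, a relative of bacterial DNA repair dioxygenases, had 46.6 to 50.9 in the mutant against 608 to 758 in the control. Neither gene overlapped between genotypes, and the log2 changes were -1.71 (SE 0.06) and -3.78 (SE 0.10) with limma adjusted p of 3.54e-05 and 5.88e-06.

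To ask whether the genes around the members also differed, the 70 genes from the 15th before *Myb* to the 15th after *CG8958* in annotation order were examined, which leaves 65 neighbours beside the members, *Myb* and *AlkB*. Gene names came from a sheet that holds the 1999 transcripts the study ranked first by p-value, so the 13 neighbours with an identified transcript were themselves selected for differing. All 234 transcripts called among the 16637 (1.41%) had a name, however, so no called neighbour was missed for want of one. Of the 1999 named transcripts 1984 matched a RefSeq gene, and a neighbour without a match could have been missed. A transcript was called at a limma adjusted p under 0.001 with a signal of at least 500 in at least 1 biological replicate. The 65 neighbours are annotated genes, 54 of them protein-coding, and not all need be on the array, so their shares are not in the same unit as shares of tested transcripts. Of the 65, 2 (3.08%) were called, *CG15914* and *Tob*, both higher in the mutant and none lower, where 0.787% of all tested transcripts were called higher and 0.619% lower. The other 11 identified neighbours were not called, and their changes ran from -0.44 in *CG42353* to 1.84 in *CG12507*. With the replicate number as a block 0 neighbours were called, against 61 transcripts of all tested (0.367%).

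*Tob*, a member of the Tob and BTG family of anti-proliferative proteins, had signals of 1889, 1902 and 1570 in mutant replicates 1, 2 and 3, against 123, 219.7 and 129 in control replicates 1, 2 and 3 (log2 mean 10.80 ± 0.16 for mutant and 7.24 ± 0.47 for control discs). It rose by 3.56 (SE 0.23, limma adjusted p = 0.000336, and 0.00272 with the replicate block). As in *Muc14A* and *CG8958*, mutant replicate 3 was the lowest mutant, and control replicate 2 was the highest and replicate 1 the lowest control. This pattern was also seen in *CG15914*, the other called neighbour, which lies beside *Myb*. It was found in 8.56% of all tested transcripts, and *Muc14A* left it when the arrays were centred or quantile-normalized again. In the annotation *CG8958* lies within the span of *Tob*, and the cDNA was double-stranded, so the array does not tell the strands apart. Signal from any *Tob* transcript that runs through *CG8958* would add to *CG8958*. By the positions in the study's sheet, however, the *Tob* transcript measured here did not overlap the *CG8958* transcript. Probe positions were not analysed here, and how far the signals of *Tob* and *CG8958* are shared was not tested.

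Genes between *CG12698* and *CG8958* did not all differ alike. Besides *Muc14A* there are 5 genes in this interval, and 3 of them had an identified transcript, *CG12395*, *Nipsnap* and *Tob*. *CG12395*, the gene after *Muc14A*, had signals of 87.7, 91.7 and 99.1 in the mutant, against 48.7, 48.6 and 48.8 in the control. Its log2 change was 0.93 (SE 0.07, limma adjusted p = 0.000485, and 0.00639 with the replicate block), and was not called because it stayed under the signal minimum. *Nipsnap*, whose mammalian relatives are mitochondrial proteins, was bright in both genotypes, with 7877, 8615 and 9373 in the mutant against 7180, 7104 and 7151 in the control. Its log2 change of 0.27 (SE 0.08, limma adjusted p = 0.106) did not pass the test. *Nipsnap* lies between *CG12395* and *Tob*.

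Beside *Myb*, on the side away from *AlkB*, *CG15914* had signals of 1398, 1397 and 1265 in mutant replicates 1, 2 and 3, against 367, 429 and 419.6 in control replicates 1, 2 and 3. It rose by 1.74 (SE 0.09, limma adjusted p = 0.000109, and 0.00278 with the replicate block). The groups did not overlap, as in 14.6% of all tested transcripts with the mutant higher. Between *AlkB* and *CG12698*, 4 genes had an identified transcript, *Gbeta13F*, *MSBP*, *Stim* and *Cep164*, with changes of -0.33, -0.22, -0.21 and 0.28 and none called. At an adjusted p under 0.05, 3 neighbours were higher (*CG15914*, *Tob* and *disco-r*) and 2 were lower (*Gbeta13F* and *CG42353*), or 7.69% of the 65 against 6.41% of all tested transcripts. Each of these 5 also had an adjusted p under 0.05 with the replicate block, under which 5.65% of all tested transcripts passed. Without the block, 1062 of the 1066 transcripts that passed at 0.05 had a name, so a neighbour lacking one could have been missed.

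**Figure D4:**
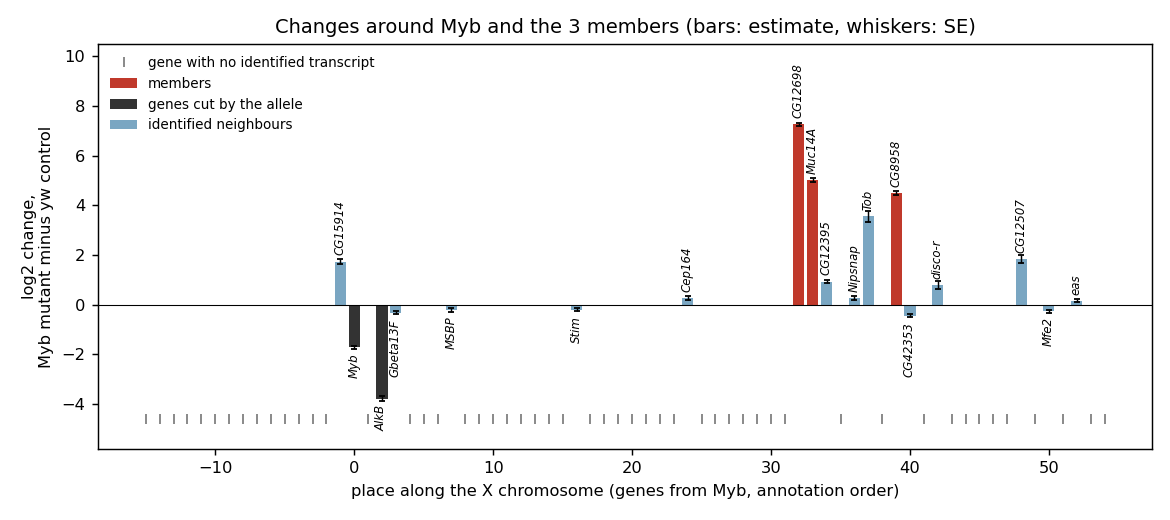
Log2 change (bars, mutant minus control, with SE) of each identified gene by its place along the X chromosome, counted in genes from *Myb*, with ticks for genes without an identified transcript. The tall bars of *CG12698* (7.26), *Muc14A* (5.01), *Tob* (3.56) and *CG8958* (4.51) stand at places 32 to 39, with *CG12395* (0.93) and *Nipsnap* (0.27) among them.

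Some of the identified markers of other cell types differed between the genotypes as well. As with the neighbours, a marker could be identified only if its transcript was in the sheet of 1999 names, so the identified markers were selected for differing. Of 10 haemocyte markers 8 were identified, and these 8, among them *PPO1*, *PPO2*, *Hml* and *NimC1*, were called lower (4 with the replicate block), where 0.619% of all tested transcripts were called lower. Their summed signal was 3466 to 4103 in the mutant and 49625 to 60529 in the control. Of 6 fat body markers 5 were identified, larval serum proteins and *Fbp2*, and 0 were called. Their log2 changes were 2.56 to 3.46, with limma adjusted p of 0.00458 to 0.0139 (0.0357 to 0.0571 with the replicate block). Their summed signal was 63476, 46575 and 92170 in mutant replicates 1, 2 and 3 and 7610, 11982 and 4317 in control replicates 1, 2 and 3. Mutant means of the identified haemocyte markers ran from 66.7 in *eater* to 1234 in *Pxn*. Of the 13 testis and germline markers 3 were identified and 0 were called, with log2 changes of 1.93 in *vas* (209 in the mutant against 54.9 in the control, limma adjusted p = 0.00129, and 0.00806 with the replicate block), 0.18 in *mia* (p = 0.153) and -0.75 in *topi* (p = 0.0191). Of the 4 markers of muscle precursors 3 were identified and 0 called, with log2 changes of -0.86 in *Him* (limma adjusted p = 0.00163), -0.84 in *zfh1* (p = 0.0408) and -0.25 in *Mef2* (p = 0.143). Of the 3 tracheal markers 1 was identified, *btl*, which was called lower (-1.32, SE 0.11, limma adjusted p = 0.000904, and 0.00895 with the replicate block). None of the 3 neuronal markers was identified. Of the 17 wing disc markers 0 were identified, so the tissue label was not checked with them. The part of any of these lists in the rise of the members was not tested.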

How the data were processed

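Per the study's methods, random-primed double-stranded cDNA labelled with Cy3 was hybridized to NimbleGen arrays. RMA was run by the authors in ArrayStar 12.0.0 (background correction, quantile normalization, median polish over the probes of a transcript), and the deposited values are signal intensity on a linear scale. Of 21051 transcripts, 4414 were excluded because each of the 23 arrays gave them the same value, 14.158. Array medians of the rest ran from 996 to 1060. No other sample columns were present (0).

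Signals were converted to log2, technical arrays were averaged within each biological replicate, and the 6 means were fitted across all 16637 transcripts (limma 3.58.1, R 4.3.3, two-sided, Benjamini-Hochberg adjustment), a procedure tested on simulated data. Arrays were averaged to 3 biological replicates per genotype, and this small number limits the precision. Each limma p-value weighs the difference of the genotype means against the spread between biological replicates. That spread was estimated in part from all tested transcripts. Replicate numbers come from the titles. For mutant and control replicates that share a number, deviations from the genotype means correlated at 0.20, 0.18 and 0.28, so the numbers were treated as pairs in the replicate block, whose source the labels do not state. Of the 1999 named transcripts, 99.2% matched a RefSeq gene (Release 6), which gave names and gene order. The build behind the array is not given in the sources used here, so no coordinates are printed. Promoter and protein sequences were not analysed here.

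The named genes were the members, *Myb* and *AlkB*, called neighbours, identified genes between *CG12698* and *CG8958*, and for each member the 3 named transcripts with the highest r. Other genes were named after their values were seen. The members, lists and alternatives were chosen with earlier results of these data known. Slide and scan were not analysed here.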

Additional observations from a re-analysis of the deposited data

How the results depend on the processing

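The changes of *CG12698*, *Muc14A* and *CG8958* kept their direction under every alternative run. With signals under 100 set to 100 they were 6.19, 3.70 and 3.73, by construction, since all control signals lay below that value. The first technical array alone gave 7.33 in *CG12698* and 4.90 in *Muc14A*, and the cause was not tested. The replicate block left the changes at 7.26, 5.01 and 4.51. Leaving out 1 biological replicate gave 7.23 to 7.28, 4.98 to 5.08 and 4.46 to 4.58, and could not reverse a change in groups that do not overlap. Centring and a second quantile normalization kept 5 of 6 replicate orders each.

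The count of called neighbours was 2. It was 0 with the replicate block, where *Tob* and *CG15914* had adjusted p of 0.00272 and 0.00278, and 0 with the methods' t-test on the 6 means. It was 5 at an adjusted p under 0.05 and 4 with no signal minimum, which added *CG12395* and *CG12507*. With an intensity trend and a robust prior it was 3, adding *Gbeta13F*, which was lower (-0.33, adjusted p = 0.000998). Leaving out 1 biological replicate gave 0 to 2, with 0 without mutant replicate 1, mutant replicate 2 or control replicate 3, and 1 without mutant replicate 3 or control replicate 1. Among alternatives chosen after seeing the data, 30 genes on either side gave 2, and the genes between *AlkB* and *CG8958* alone gave 1, *Tob*. Control signals near the bottom of the range limit what any fold of the members can show.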
